A study of Mus musculus with 6 samples.

Results

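The SH2B adaptor family, with 3 members of the 18194 genes named on the array, was measured by 6 probe sets of 45101, 2 each for Sh2b1, Sh2b2 and Sh2b3. The members were all probe sets whose platform annotation gives 1 of these 3 gene symbols, a rule that uses none of their values. The family itself was chosen with earlier results of these data known. The arrays carried RNA of mouse T cell leukemias in 2 groups of 3 arrays each. Wild-type leukemias came from C57BL6 marrow and knockout leukemias from Sh2b3-/- marrow, for which the labels give no strain. In both groups the donors were 8 weeks old, and the lineage-negative marrow cells had been infected with the MigR1-ΔE-Notch1 retrovirus, which carries an activated NOTCH1 and a green fluorescent reporter. The infected cells grew in irradiated C57BL6 recipients, whose own cells carry intact Sh2b3, and the labels name no sorting of the tumours before RNA was isolated. From each sample 10 ng of RNA was amplified before hybridisation. The titles call the samples biological replicates, but the labels also speak of isolation in triplicate and tie no array to an animal, so the p-values measure a spread that may in part be technical.

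SH2B proteins are adaptors with a pleckstrin homology domain, which binds membrane lipids, and an SH2 domain, which binds phosphorylated tyrosines on activated receptors and JAK kinases. SH2B3, also called LNK, restrains signalling from cytokine receptors in blood cells and is lost in some lymphoid leukemias. SH2B1 promotes signalling from JAK2 and from the receptors for insulin, leptin and growth hormone, and SH2B2, also called APS, links the insulin receptor to CBL. The comparison addresses whether the paralogs were expressed in these leukemias and whether they shifted when Sh2b3 was lost.

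The values are log2 signals made by the authors with GCRMA. They carry no detection call, so the level of a gene that is off was read from 46 probe sets of 29 genes of liver, pancreas, brain, sperm and other tissues outside the blood. The 95th percentile of these probe sets, taken in each array, is called the reference limit here and lay between 2.54 and 2.73. A reading under it does not show that a transcript is absent. Jak3, a kinase typical of lymphocytes, read 1.94 to 2.33 in wild type and 1.52 to 2.45 in knockout, under the limit on all 6 arrays. Hba-a1, a globin gene, read 1.55 to 1.76, although the red cell gene Slc4a1 read 10.70 to 12.09. Of 11 T lineage markers measured, 10 were above the limit on all 6 arrays, among them Cd3d, Cd3g, Thy1 and Ptcra, and Cd4 was above it on 4 arrays.

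Wild-type replicates 1 and 2 resembled each other more than any other pair of arrays did. Among probe sets averaging over 5, their values differed with an SD of 0.246, where the other 14 pairs had 0.5 to 0.688. They were kept as separate samples. Results with each left out and with both averaged are given for Sh2b3, and for other genes only in part.

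Sh2b3 was lower in knockout by its more intense probe set, 1433455_at, which was designed to an expressed sequence tag. It read 4.25, 4.83 and 4.08 on wild-type arrays 1 to 3, and 2.29, 2.24 and 2.29 on knockout arrays 1 to 3. All wild-type values lay above the reference limit and all knockout values lay under it, with a gap of 1.79 between the lowest wild-type and the highest knockout value. The wild-type mean was 4.39 ± 0.39 and the knockout mean 2.27 ± 0.03 (SD, n = 3 each). This is a log2 difference of -2.11, with a moderated standard error of 0.243 and a 95% interval from -2.66 to -1.57 by limma. Since the knockout values lie under the limit, the measured 4.33-fold difference depends on the low end of the scale. Set against the knockout reference limits, whose mean was 2.65, the wild-type mean was 3.32-fold higher. This is a point estimate that leaves out the spread of the wild-type arrays. In bulk tumours, fewer cells of a type and less RNA per cell cannot be told apart.

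The difference in Sh2b3 did not pass the threshold over all probe sets tested, with an adjusted p of 0.151 by limma and an unadjusted p of 9.98e-06. This was the second smallest p among the 34958 probe sets tested, and 22 of them had a larger decrease. No probe set tested passed an adjusted p under 0.05 by limma (0% called). Of them 2401, or 6.87%, had an unadjusted p under 0.05, 3.08% higher and 3.78% lower in knockout. An exact permutation test, two-sided, gave 0.1, which is the lowest p that 3 arrays against 3 can reach. Without wild-type replicate 3 the adjusted p was 0.0139, at a log2 difference of -2.27, with adjusted p from 0.0139 to 0.5 over 17 alternatives. In that fit only the closely matching replicates 1 and 2 represent the wild type. Without replicates 1 and 2 in turn the adjusted p values were 0.5 and 0.392, and with these arrays averaged into 1 sample the adjusted p was 0.471 at a difference of -2.04.

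Sh2b3 was among the features in which the near-identical wild-type arrays did differ. They were 0.58 apart for 1433455_at, and 6.44% of probe sets with a mean above 3 were at least as far apart. The knockout arrays spanned 0.05.

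The other Sh2b3 probe set, 1450183_a_at, was designed to the RefSeq transcript and is shared by transcript variants of the gene. It read 1.82, 1.97 and 1.75 in wild type and 1.82, 1.84 and 1.81 in knockout. All 6 values lay under the reference limit and the groups overlapped. The difference of -0.02 had a 95% interval from -0.29 to 0.24 (adjusted p = 0.977 by limma). A probe set under the limit in wild type cannot check the knockout. The labels do not say which part of the gene is deleted, and where either probe set lies relative to it was not analysed here.

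**Figure D1:**
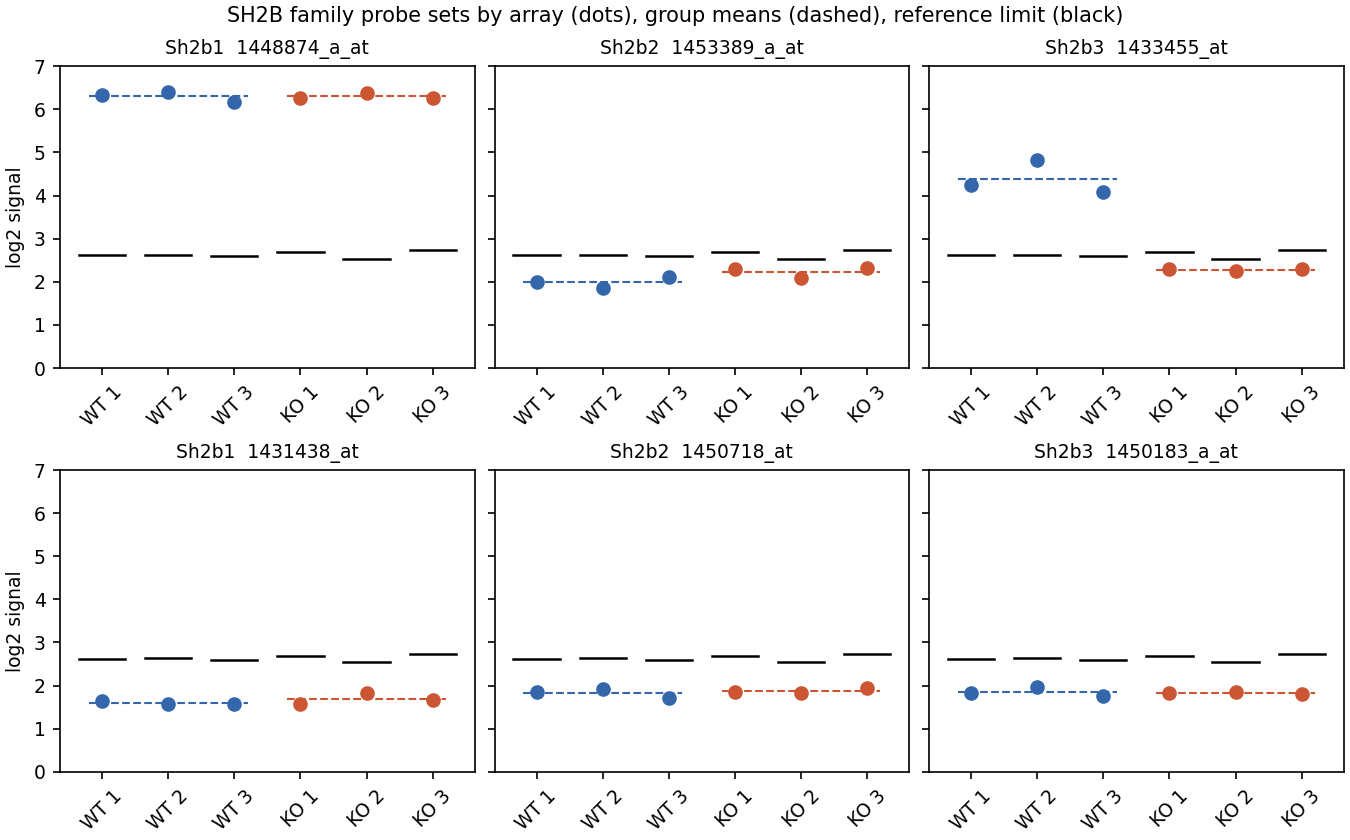
Log2 signal of the 6 family probe sets on each of the 6 arrays, wild type (WT) in blue and knockout (KO) in orange, with dashed group means and the reference limit of each array as a black bar. Sh2b1 1448874_a_at is above the limit on all arrays, Sh2b3 1433455_at on the wild-type arrays alone, and the other 4 probe sets on none.

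Sh2b1, the family member that promotes JAK2 and insulin receptor signalling, was above the reference limit in both groups and read nearly the same on all arrays. Its more intense probe set, 1448874_a_at, read 6.34, 6.41 and 6.17 in wild type and 6.26, 6.38 and 6.27 in knockout. All knockout values fell between the lowest and the highest wild-type value. The means were 6.31 ± 0.12 and 6.30 ± 0.07 (SD, n = 3 each), with a difference of -0.0033 on the log2 scale (adjusted p = 0.997 by limma). The 95% interval, from -0.49 to 0.48, allows a level in knockout between 0.713 and 1.4 times that in wild type. The exact permutation p was 1.0. Because the standard error of 0.215 borrows from probe sets of similar intensity, this interval is wider than the spread of Sh2b1 itself.

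The steadiness of Sh2b1 was set against other probe sets of like level, a comparison chosen after its values were seen. Its range over the 6 arrays was 0.24. Of 1841 probe sets with a mean within 0.5 of its own, 12 had a smaller range, or 0.652%, and the median range was 0.97. After quantile normalization its range was 0.38 and 4.94% had a smaller one, and after centring each array on its median the range was 0.19 and 0.163% had a smaller one. Signal from leukemia cells and from other cells in the tumour cannot be told apart in this reading.

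**Figure D2:**
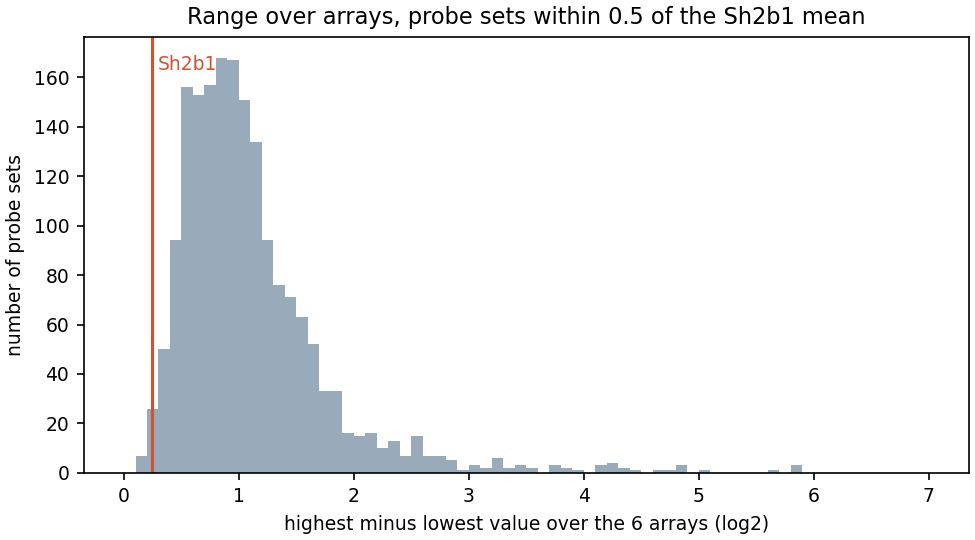
Histogram of the highest minus the lowest log2 value over the 6 arrays, for the 1841 probe sets with a mean within 0.5 of Sh2b1 1448874_a_at, in bins of 0.1. The Sh2b1 range of 0.24, the vertical line, lies at the low edge, and the median of the probe sets shown is 0.97.

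The other Sh2b1 probe set, 1431438_at, was designed to an expressed sequence tag and lay under the reference limit on all 6 arrays. It read 1.64, 1.57 and 1.57 in wild type and 1.58, 1.82 and 1.67 in knockout. Array 2 was the highest of the knockout group, and the groups overlapped. The difference was 0.10, with a 95% interval from -0.15 to 0.34 (adjusted p = 0.865 by limma). Thus the probe sets of Sh2b1, like those of Sh2b3, divided into one above the limit and one under it in wild type, and the annotation alone does not tell which transcripts they report.

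Sh2b2, the adaptor that ties the insulin receptor to CBL, was under the reference limit on every array by both of its probe sets. The more intense one, 1453389_a_at, read 1.99, 1.86 and 2.11 in wild type and 2.30, 2.08 and 2.31 in knockout. Knockout arrays 1 and 3 were above all wild-type arrays and knockout array 2 fell within their range. The means were 1.99 ± 0.13 and 2.23 ± 0.13 (SD, n = 3 each). The difference of 0.24 had a standard error of 0.146 and a 95% interval from -0.09 to 0.57, with an adjusted p of 0.764 by limma and an exact permutation p of 0.2.

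The low end of the scale also varied between arrays. The median of the 46 reference probe sets was 1.90, 1.85 and 1.82 on the wild-type arrays. On knockout arrays 1 to 3 it was 2.03, 1.72 and 2.17. Knockout arrays 1 and 3 were above knockout array 2 in both the Sh2b2 reading and the reference median. The wild-type order differed, since array 3 had the highest Sh2b2 reading, 2.11, and the lowest reference median. Knockout array 2 had the lowest median of all, with an Sh2b2 reading of 2.08. The part of this variation in the Sh2b2 difference was not tested. With each array centred on its median, the Sh2b2 difference was 0.20.

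The less intense Sh2b2 probe set, 1450718_at, read 1.85, 1.92 and 1.71 in wild type and 1.86, 1.83 and 1.95 in knockout, with overlapping groups. Its difference was 0.05, with a 95% interval from -0.22 to 0.33 (adjusted p = 0.943 by limma). A change in Sh2b2 at levels under the limit could be missed by both probe sets. Sh2b2 and Sh2b3 both lie on chromosome 5 in the mouse assembly GRCm38.p6, with 169 protein-coding genes between them, and Sh2b1 lies on chromosome 7.

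**Figure D3:**
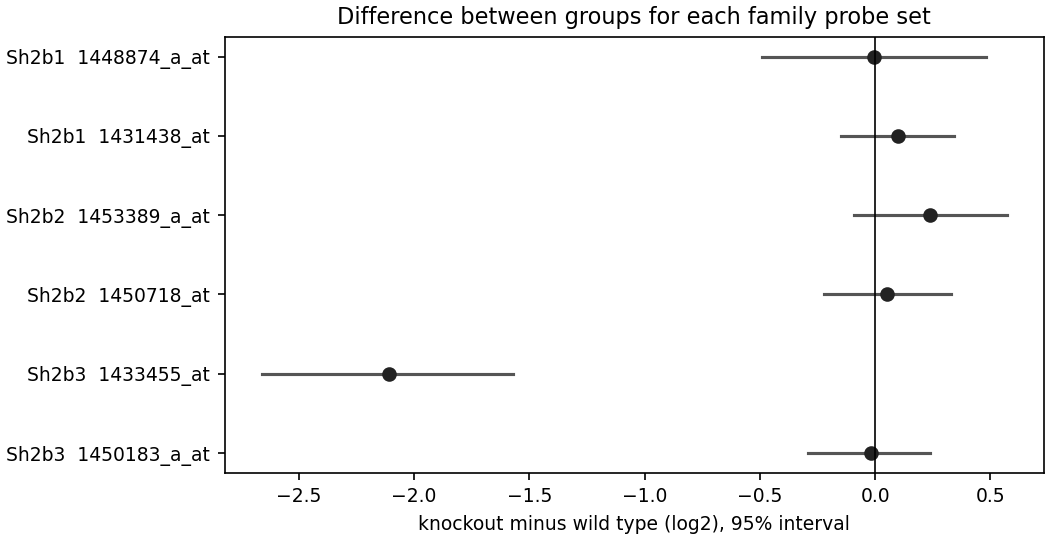
Knockout minus wild type on the log2 scale for each of the 6 probe sets (dots) with the 95% interval from limma (lines). The interval of Sh2b3 1433455_at runs from -2.66 to -1.57 and the other 5 intervals include 0.

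Of the 6 family probe sets, 0 passed an adjusted p under 0.05 by limma and 1, Sh2b3 1433455_at, had an unadjusted p under 0.05. That probe set was also the 1 family member whose groups did not overlap. Over all probe sets tested the groups did not overlap in 12.3%, with knockout lower in 6.79% and higher in 5.53%. The loss of Sh2b3 was set beside the change in its paralogs by the difference between their leading probe sets within each array, for 2 pairs. Sh2b3 minus Sh2b1 was at least -2.09 in wild type and at most -3.97 in knockout. The change was -2.11, with an exact permutation p of 0.1, the smallest possible. Sh2b3 minus Sh2b2 was at least 1.97 in wild type and at most 0.16 in knockout. The change was -2.36, with an exact permutation p of 0.1. Neither p was adjusted for the 2 pairs. A design of 3 against 3 cannot reach 0.05 in this test. Sh2b3 alone separated the groups by 1.79, more than the ranges of Sh2b1 (0.24) and Sh2b2 (0.45) over all arrays. Both p values therefore follow from the Sh2b3 readings and say nothing further about the paralogs. Sh2b2 lay under the limit on all arrays and Sh2b3 under it in knockout, so the second value is no measured difference between changes in expression of the genes, and the size of the first depends on the low end of the scale.

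Receptors and kinases that SH2B proteins are known to bind were measured for 18 of 20 listed genes, each by its most intense probe set, and 7 were above the reference limit on all arrays, where 47.4% of all genes were. These were Jak1, Jak2, Tyk2, Csf1r, Pdgfrb, Insr and Igf1r. The receptors Kit, Flt3, Lepr and Ghr, by contrast, read under the limit on every array, from 1.37 to 2.40. Jak2, the kinase most closely tied to the family, read 8.15, 8.09 and 7.96 in wild type and 8.10, 8.15 and 7.50 in knockout, with overlapping groups. Jak1 read 9.05, 8.97 and 9.16 in wild type and 9.23, 8.49 and 7.99 in knockout, with knockout arrays 2 and 3 under all others. Its difference of -0.49 was -0.20 without knockout replicate 3, -0.82 without knockout replicate 1 and -0.07 with the mean over its probe sets.

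Pdgfrb, a growth factor receptor, varied most in this list. It read 10.34, 10.72 and 8.11 in wild type and 4.88, 9.13 and 9.06 in knockout, so that knockout array 1 stood far below the rest. Its difference of -2.03 had an adjusted p of 0.755 by limma. It was -0.63 without knockout replicate 1 and -2.84 without wild-type replicate 3. Pdgfra was 2.18 to 2.47 in wild type and 2.65 to 2.79 in knockout, with no overlap but close to the reference limit. Its difference was 0.39 (adjusted p = 0.718 by limma) and 0.16 with the mean over its probe sets. Ntrk3, a neurotrophin receptor, lay under the limit throughout. Its difference of 0.25 was 0.07 with the mean over its probe sets, and 0.12 to 0.38 with 1 array left out. The groups did not overlap for Pdgfra, which was higher, and Kit, which was lower, against 6.07% higher and 6.44% lower over all genes. In this list 0 genes passed in either direction, and 1 was higher and 0 lower at an unadjusted p under 0.05. Over all 18194 genes 3.52% were higher and 3.45% lower by that rule. The median difference of the list was 0.00, against 0.02 over all genes.

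Intracellular partners and substrates of SH2B proteins were above the limit on all arrays in 17 of 19 genes, against 47.4% of all genes. Irs1 and Irs2 were the others. Of the 19, 0 passed the threshold in either direction by limma. At an unadjusted p under 0.05 by limma 1 was lower and 0 higher, against 3.45% and 3.52% of all genes. The fitted differences were negative in 14 and positive in 5, with a median of -0.10. Among the 8621 genes above the limit on all arrays 59.7% were negative, with a median of -0.07. Ptpn11, which encodes the phosphatase SHP2, read 8.86, 8.96 and 8.80 in wild type and 8.27, 8.67 and 8.45 in knockout. All knockout values were under all wild-type values, and the difference was -0.41 (adjusted p = 0.719 by limma). Pik3r1, a regulatory subunit of phosphoinositide 3-kinase, read 10.07, 10.19 and 8.92 in wild type and 9.42, 9.23 and 8.71 in knockout, with overlap through wild-type array 3. Its difference of -0.61 was -0.38 to -1.01 with 1 array left out, the largest without wild-type replicate 3. Plcg1, a phospholipase activated by receptors, had a difference of -0.40 and turned to 0.03 with the mean over its probe sets. Irs1, an insulin receptor substrate, had -0.16 with all values under the limit. The groups did not overlap for 2 genes, Ptpn11 and Irs1, both lower in knockout. The share over all genes was 6.44% lower and 6.07% higher. Cbl, the ubiquitin ligase that SH2B2 recruits, read 9.87 to 10.15 in wild type and 9.47 to 9.98 in knockout. Ywhaq was the steadiest of the listed 14-3-3 genes, from 11.71 to 11.76 over all arrays. Others varied more, with Ywhab at 11.82 to 12.35 and Ywhae at 10.65 to 11.19, and the groups overlapped in each listed 14-3-3 gene. 14-3-3 proteins are known to bind phosphorylated LNK.

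Among other SH2 adaptor genes, 28 of 29 were measured and 17 were above the limit on all arrays, where 47.4% of all genes were. In this list 0 genes passed the threshold in either direction by limma, and 3 were higher and 0 lower at an unadjusted p under 0.05, where the shares over all genes were 3.52% and 3.45%. The groups did not overlap for 3 genes higher and 1 lower in knockout, against 6.07% and 6.44% of all genes. The median difference was 0.04, against 0.02 over all genes. Stap1, an adaptor with the same kinds of domain as LNK, a pleckstrin homology and an SH2 domain, read 8.85, 8.79 and 9.37 in wild type and 10.20, 9.57 and 9.47 in knockout. All knockout values were above all wild-type values, with a gap of 0.10 between knockout array 3 and wild-type array 3. Its difference was 0.74 (adjusted p = 0.705 by limma).

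Blnk, an adaptor of B cell receptor signalling, read 3.13, 3.05 and 3.69 in wild type and 4.44, 5.19 and 3.45 in knockout, a difference of 1.07 (adjusted p = 0.712 by limma). Knockout arrays 1 and 2 were above wild type and array 3 was inside its range. The Blnk difference was 0.66 without knockout replicate 2 and 1.52 without knockout replicate 3. The B cell genes Cd79b and Ms4a1 were also above wild type on knockout arrays 1 and 2 but not on array 3, with Cd79b at 4.86 to 5.85 in wild type and 6.78, 7.34 and 4.74 on knockout arrays 1 to 3. Over all 9 B lineage markers measured, the log2 of the summed signal was 6.92 to 7.45 in wild type and 8.22, 8.48 and 6.63 on knockout arrays 1 to 3. The sum adds unlogged signals, so the brightest markers, Cd79b and Ms4a1, weigh most in it. Of the 9, Cd79b, Ms4a1 and Cd22 were above the limit on all arrays, while Cd79a, Pax5 and Vpreb3 were under it on all. Closer to the limit, Ebf1 and Fcrla were also above wild type on knockout arrays 1 and 2 but not on array 3. Ebf1 read 2.68 to 2.74 in wild type and 3.02, 3.35 and 2.13 on knockout arrays 1 to 3. Fcrla read 2.34 to 2.79 in wild type and 3.34, 2.84 and 2.33 on these knockout arrays. Blk stayed within its wild-type range of 1.95 to 2.94 on all knockout arrays. Cd22 did not follow Cd79b and Ms4a1 either, at 4.68, 4.70 and 3.30 in wild type and 4.45, 4.58 and 3.16 in knockout. The part of B lineage cells in the Blnk and Stap1 differences was not tested. Nck2, which links receptors to the actin skeleton, had -0.36 with no overlap, and Sh2d4b had 0.36 with all values under the limit.

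**Figure D4:**
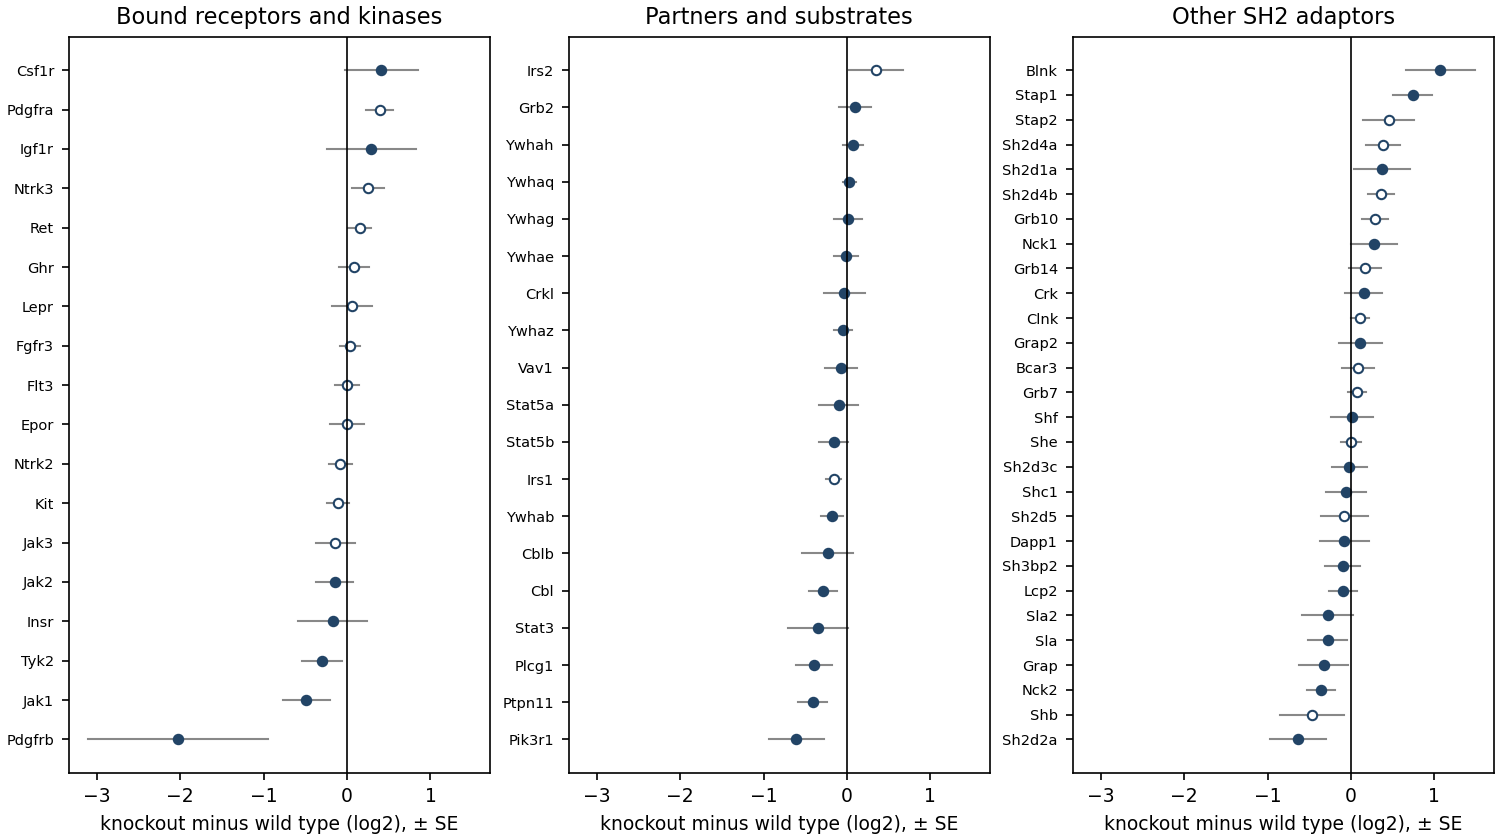
Knockout minus wild type on the log2 scale (dots) ± moderated standard error (lines) for the genes of the 3 lists, each by its most intense probe set. Filled dots are genes above the reference limit on all 6 arrays, and none of the 65 genes shown passed the threshold.

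Markers of other blood and vessel cells that can express SH2B genes were measured in the same tumours. Of 8 endothelial markers 6 were under the limit on all arrays, among them Cdh5, Kdr and Tek, and the log2 summed signal was 6.27 to 6.41 in wild type and 6.33 to 6.62 in knockout. Of 7 megakaryocyte and platelet markers, Pf4 and Itga2b were above the limit on all arrays, and the log2 sum was 6.32, 6.44 and 7.53 on wild-type arrays 1 to 3 and 6.28 to 8.16 in knockout. Of 10 monocyte, macrophage and granulocyte markers 7 were above the limit on all arrays, with sums of 12.02 to 12.28 and 12.25 to 12.46. Of 5 erythroid markers 3 were, with sums of 11.72 to 12.01 and 10.89 to 12.29. In each of these 4 lists the ranges of the summed signal overlapped between groups. These sums add unlogged signals, so they mostly follow the brightest markers, such as Slc4a1 among erythroid and S100a8 and S100a9 among myeloid markers. Of single markers, Lyz2, Adgre1 and S100a9 were higher on every knockout array than on every wild-type array, by 0.35, 0.58 and 0.27 on average, and so was Hba-a1, by 0.09, under the limit. Cdh5 and Emcn were lower on every knockout array than on every wild-type array, with differences of -0.42 and -0.26 and all values under the limit. Over all genes 6.07% were higher and 6.44% lower without overlap. The part of such cells in the family's readings was not tested.

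The genes whose pattern over the 6 arrays was most like each family member were named by Pearson correlation among 3418 genes with a range of at least 1, as a description. For Sh2b3 they were Ddc (0.978), Ext2 (0.975), Meak7 (0.97) and Naip6 (0.97). Each of these was lower on all knockout arrays. Ddc makes dopamine and serotonin from their precursors and Ext2 builds heparan sulfate. Meak7 read 4.02, 4.02 and 3.79 in wild type and 3.15, 2.97 and 2.83 in knockout. A pattern that splits 3 arrays from 3 is shared by many genes, since 6.44% of all genes were lower on every knockout array than on every wild-type array.

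For Sh2b1 they were Magi3 (0.978), Ccnd2 (0.972), Celsr2 (0.964) and Ncf4 (0.962), all with overlapping groups. Ccnd2, the cell cycle gene for cyclin D2, read 6.71, 6.86 and 4.0 in wild type and 5.08, 6.73 and 5.02 in knockout, so that it spanned a far wider range than Sh2b1. For Sh2b2 they were Necab1 (0.995), Pcbp4 (0.963), Oaf (0.961) and Tle4 (0.955), with Necab1 at 2.77, 2.01 and 4.24 in wild type and 5.93, 3.91 and 6.14 in knockout. All Sh2b2 values lie under the reference limit and span 0.45, so that its list describes readings near background and not its expression. These names rested on single arrays: when each array was left out in turn, 0 to 3 of the 4 genes were kept for Sh2b3, 0 to 2 for Sh2b1 and 1 to 3 for Sh2b2.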

How the data were processed

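The deposited values are log2 signals that the authors made with GCRMA, per the submitters' processing notes, which corrects background by probe sequence and normalizes between arrays. The version of GCRMA is not given in the sources used here, nor are its settings, and base 2 was read from the range of the values, 0.31 to 14.76. Array medians were 2.26 to 2.36. Amplification of small RNA inputs can distort differences. The number of arrays limits the precision. The platform annotation gave 1 symbol to 34958 probe sets, of which 34754 were matched to current RefSeq names by gene identifier. Those with several symbols (932) or none (9211) were left out.

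Knockout minus wild type was fitted to these 34958 probe sets in R 4.3.3 with limma 3.58.1 (lmFit, then eBayes with its trend option). The tests were two-sided and Benjamini-Hochberg adjusted across the whole set, with no filter on low values and a threshold of 0.05. The exact permutation test was also two-sided. Of the 6 family probe sets, 3 averaged more than 2.04, the 40th percentile over the table. Pathway genes were represented by their most intense probe set. The members and lists were chosen with earlier results of these data known. From each of the 3 pathway lists the text names members past the threshold or else the 4 with the smallest p, other members being chosen after their values were seen, and any marker. For each family gene it names the 4 genes most like it.

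The fit was tested on simulated data with known changes. Alternatives left out each array, averaged wild-type replicates 1 and 2, used replicate number as a block or weighted the arrays, and changed the filter, the features tested, the normalization, the prior variance or the reference limit.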

Additional observations from a re-analysis of the deposited data

How the results depend on the processing

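Sh2b3 1433455_at was lower in knockout in all 17 alternatives, from -2.27 to -1.07. The smallest size came from the mean over both of its probe sets. Leaving out 1 array gave -2.27 to -1.89, and it passed the threshold once, without wild-type replicate 3 (adjusted p = 0.0139). Over the family 0 to 1 probe sets then passed, and over all probe sets 0 to 27 were higher and 0 to 48 lower. The counts above 0 came without wild-type replicate 3 (27 higher, 48 lower), knockout replicate 1 (3 and 1) and knockout replicate 2 (1 and 0), and array weights gave 1 lower. Differences near 0 changed sign. Sh2b1 1448874_a_at had 0.14 with quantile normalization, 0.05 with the mean over probe sets, 0.03 with wild-type replicates 1 and 2 averaged, and -0.07 to 0.05 with 1 array left out. Sh2b2 1450718_at had -0.005 to 0.10, and Sh2b3 1450183_a_at -0.07 to 0.04, with 1 array left out, and the latter 0.0008 with the arrays averaged. Plcg1 had 0.03 with the mean over probe sets. The cause was not tested. Of the 4 genes most like Sh2b1, 0 were kept with quantile normalization and 0 with median centring. Of those most like Sh2b2, 1 and 2 were kept. With 1 array left out 0 to 2 were kept for Sh2b1, 1 to 3 for Sh2b2 and 0 to 3 for Sh2b3. The counts above the reference limit, 2 probe sets on every wild-type array and 1 on every knockout array, held at the 90th percentile, the highest reference probe set and the array median.

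With the replicate number as a block the Sh2b3 difference was -2.11 (adjusted p = 0.273) and 0 probe sets passed. Deviations of same-numbered arrays had correlations of -0.013, 0.111 and -0.025, and those of differently numbered arrays -0.133 to 0.091. With 3 arrays per group these values cannot tell whether the numbers pair the samples.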
